A study of Mus musculus with 7 samples.

Results

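The red cell and heme synthesis genes other than the globins were examined in the outflow tract (OFT) of mouse embryos. They are the genes that equip a maturing red cell: its transcription factors, the enzymes that make heme, the carriers that bring in iron, and the proteins of its membrane and membrane skeleton. The genes were chosen by name. Of 38 genes so named, 35 were among the 14732 genes listed in the deposited table, and *Ahsp*, *Trim58* and *Isg20* were not analysed here. They were divided by what is generally known of where they are expressed. Genes taken here as blood-restricted, which few tissues other than blood express, numbered 13, and genes with a broader expression numbered 22.

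Red cells carry hemoglobin, in which each globin chain holds a heme group. Heme is built from glycine and succinyl coenzyme A by a chain of enzymes that begins and ends in the mitochondrion, where iron is inserted in the last step. In the mouse embryo at this stage, most circulating red cells are primitive erythroblasts that arose in the yolk sac, still have a nucleus and still hold mRNA, so that an OFT dissected with blood in its lumen contains red cell transcripts beside those of the heart.

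The RNA came from OFTs dissected at embryonic day (E) 11.5 and pooled. There were 3 WT pools, numbered 3, 4 and 5, and 4 *Gata6STOP/+* pools, numbered 1, 3, 4 and 5. *Gata6STOP/+* embryos carry, in every cell, 1 copy of *Gata6* in which CRISPR-Cas9 editing of exon 2 created a premature stop codon, and their other copy is intact. WT pools carry 2 intact copies. No other allele or agent is given for either group. Polyadenylated RNA was sequenced from a directional library of each pool. The labels do not say what the replicate numbers stand for, nor whether embryos of different pools shared a litter, so that a p-value measures the spread between these pools. Levels are in CPM, read counts scaled by the authors to a common library size.

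Depth on the listed genes was 17783655 to 29035529 reads in WT pools and 24736761 to 34467710 in *Gata6STOP/+* pools. *Gata6* itself had 315, 257 and 286 CPM in WT pools 3, 4 and 5, and 268, 203, 219 and 217 CPM in *Gata6STOP/+* pools 1, 3, 4 and 5, so that pool 1 lay within the WT range; its log2 fold change was -0.34 (SE 0.099, limma adjusted p = 0.389). Marker lists for cardiomyocytes, smooth muscle, cushion mesenchyme and endothelium were also read. Every gene in the deposited table had reached 1 CPM in 3 or more samples. The presence of a listed marker therefore does not test the tissue label. Summed cardiomyocyte markers were at 18122 to 20650 CPM in WT pools and 14545 to 21170 CPM in *Gata6STOP/+* pools.

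The blood-restricted genes were detected in every pool, and their level differed more between pools of the same genotype than between genotypes. Summed over the 13 genes, they had 119, 114 and 243 CPM in WT pools 3, 4 and 5 (159 ± 73.2, SD, n = 3), and 136, 180, 203 and 335 CPM in *Gata6STOP/+* pools 1, 3, 4 and 5 (213 ± 85.5, SD, n = 4). *Gata6STOP/+* pool 5 was highest, WT pool 5 was second and above 3 of the *Gata6STOP/+* pools, and the groups overlapped. The ratio of the group means was 1.34, and the ratio of the highest to the lowest pool was 2.94. In a bulk sample, fewer red cells and less RNA per red cell cannot be told apart, so these sums do not separate the amount of blood in a pool from the activity of the genes in it.

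**Figure D1:**
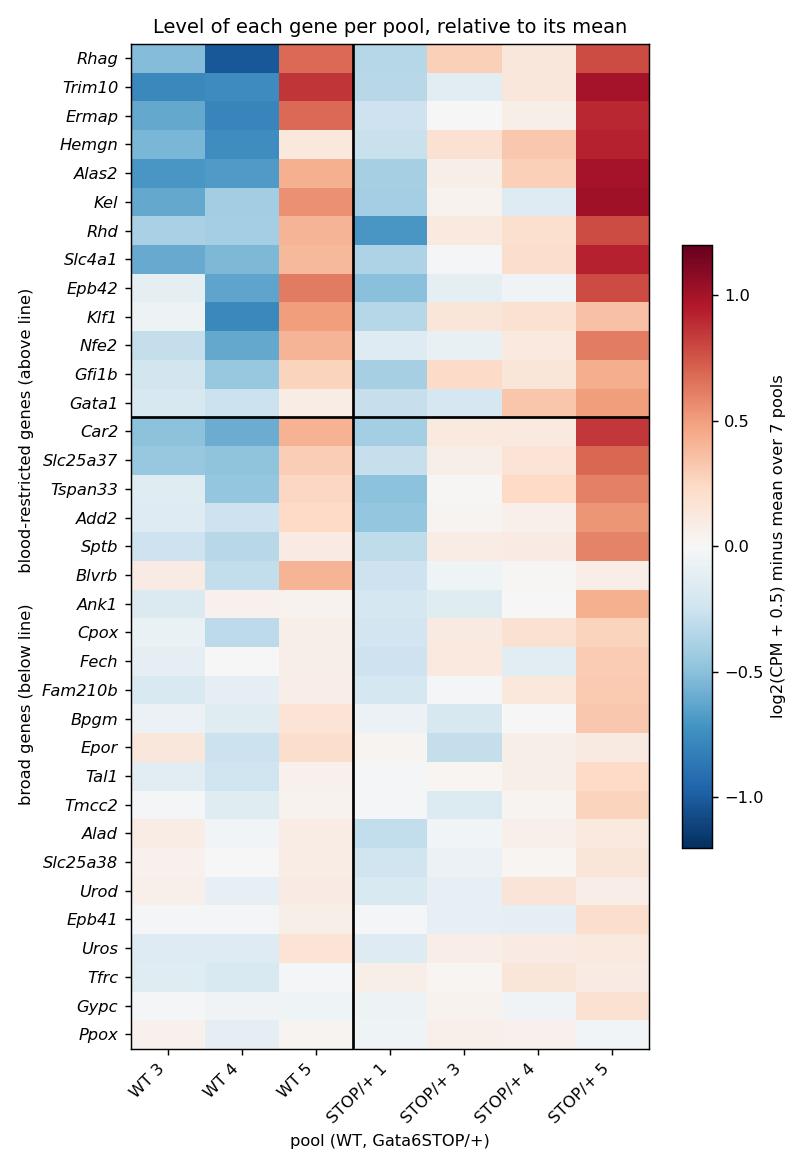
Level of each of the 35 genes (rows) in each of the 7 pools (columns), as log2(CPM + 0.5) minus the gene's own mean over the 7 pools; red is above and blue below that mean. The 13 blood-restricted genes above the black line are mostly blue in WT pools 3 and 4 and *Gata6STOP/+* pool 1, and most of them are reddest in *Gata6STOP/+* pool 5. Most of the 22 broad genes vary less than the blood-restricted ones.

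For each gene, genotypes were compared with limma, a linear model fitted across all 14732 genes on log2(CPM + 0.5) of the 7 pools, with Benjamini-Hochberg adjustment. By this test, 0 of the 35 genes passed an adjusted p of 0.05, higher or lower, where 0% of all listed genes passed. At an unadjusted p under 0.05, limma gave 2 of the 35 genes (*Tfrc* and *Hemgn*), both higher in *Gata6STOP/+*, against 8.06% of all genes in either direction and 4.17% higher. On the reads recovered from the table and with no pairing of replicate numbers, edgeR's quasi-likelihood test, edgeR's likelihood ratio test and DESeq2 also called 0 of the 35 genes, where they called 0%, 0.713% and 0.597% of all genes. Every *Gata6STOP/+* pool was above every WT pool for 1 of the 35 genes, *Tfrc*, where 4.31% of all genes had such a separation, and every *Gata6STOP/+* pool was below every WT pool for 0 of the 35 genes, where 4.16% had it.

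The estimated differences lay more often above than below 0. The log2 fold change, *Gata6STOP/+* over WT, was above 0 in 13 of 13 blood-restricted genes and in 16 of 22 broad genes, where 49.8% of all genes had a value above 0. Its median was 0.28 over the blood-restricted genes (0.07 to 0.68) and 0.07 over the broad genes (-0.12 to 0.39), and -0.0007 over all genes. As these genes vary together from pool to pool, their shared sign is not a count of independent observations. The median of the blood-restricted genes was 0.64 without WT pool 5 and 0.49 without *Gata6STOP/+* pool 1, but 0.14 without WT pool 4 and 0.12 without *Gata6STOP/+* pool 5. In the last 2 of these fits, 11 of the 13 genes stayed above 0.

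**Figure D2:**
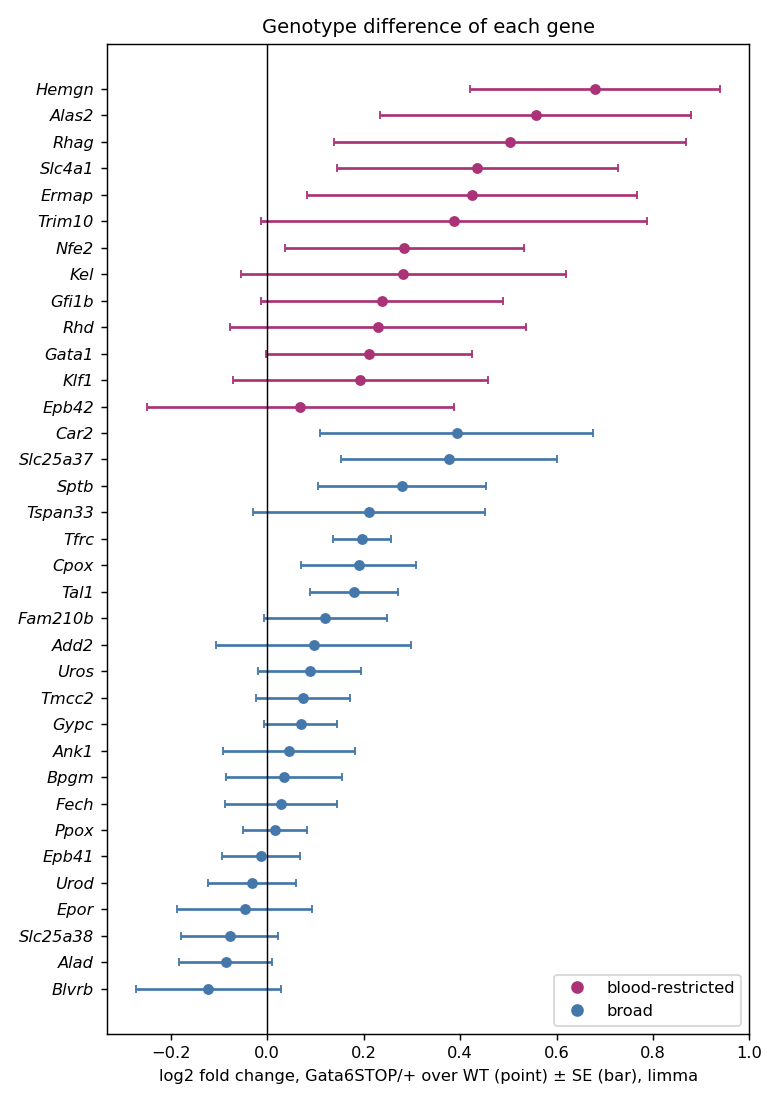
Log2 fold change of each gene, *Gata6STOP/+* over WT, on the log2(CPM + 0.5) scale (point), with its standard error (bar), from limma over 3 WT and 4 *Gata6STOP/+* pools. All 13 blood-restricted points lie above 0, from 0.07 to 0.68, with wide bars, and 0 of the 35 genes passed the adjusted threshold.

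Among the nuclear regulators, 4 are blood-restricted: *Gata1*, the zinc finger factor on which red cell and megakaryocyte formation depends, *Klf1*, which activates red cell genes including the adult beta globins, *Nfe2*, a leucine zipper factor that binds the globin control regions, and *Gfi1b*, a zinc finger repressor. They were read from 22 (*Gfi1b*) to 264 (*Nfe2*) reads per pool. *Klf1* had 5.23, 3.0 and 7.95 CPM in WT pools 3, 4 and 5, and 4.21, 6.09, 6.26 and 7.12 CPM in *Gata6STOP/+* pools 1, 3, 4 and 5. Its highest value was in WT pool 5 and its lowest in WT pool 4, so that the WT pools spanned those of *Gata6STOP/+*. Its log2 fold change was 0.19 (SE 0.26, limma adjusted p = 0.891) and became -0.14 without WT pool 4. *Gata1* had 2.45, 2.31 and 3.08 CPM against 2.28, 2.43, 3.74 and 4.27 CPM in the same order of pools, and the groups overlapped. *Nfe2* lay between 3.0 and 6.61 CPM in WT and between 4.31 and 7.68 CPM in *Gata6STOP/+*, *Gfi1b* between 0.828 and 1.68 and between 0.877 and 1.95 CPM.

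The broad regulators were steadier. *Tal1*, a helix-loop-helix factor of blood formation that endothelial cells also express, had 25.7, 23.8 and 29.2 CPM in WT pools 3, 4 and 5, and 27.8, 28.5, 29.5 and 33.3 CPM in *Gata6STOP/+* pools 1, 3, 4 and 5. Only WT pool 5 reached into the *Gata6STOP/+* range, and the log2 fold change was 0.18 (SE 0.091, limma adjusted p = 0.663). *Epor*, the receptor of erythropoietin, the hormone that keeps red cell precursors alive, was between 8.69 and 12.2 CPM in WT and between 8.51 and 11.3 CPM in *Gata6STOP/+*, with nearly the same range in both.

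Sequence next to the start site was also looked up for the genes. Whether it bears on their levels in these pools was not tested. RefSeq promoters (GRCm38.p6, 250 bases before to 50 after the annotated start) were found for 28 of the 35 genes; none was given for *Car2*, *Slc25a37*, *Slc4a1*, *Ank1*, *Gypc*, *Nfe2* and *Fech*. Both strands were searched for the GATA motif, which was taken as AGATAA, as its variant AGATAG, or as the same letters with a different first base, TGATAA in the former case and TGATAG in the latter. For this motif, 10 of the 11 blood-restricted promoters (90.9%) and 6 of the 17 broad ones (35.3%) held a match, where 30.2% of 27025 genes in the same table did. *Gata1* was the blood-restricted gene with none in this window. The KLF motif (CCNCNCCC) showed the other order, with 5 of 11 blood-restricted (45.5%) and 16 of 17 broad promoters (94.1%), where 49.1% of all genes had it. Overlapping matches were counted, each gene was counted once, and a match describes the sequence, not a bound site. Of the listed genes with a promoter, *Alas2*, *Gfi1b*, *Hemgn* and *Rhd* were the 4 blood-restricted ones with both motifs (36.4% of 11), and 29.4% of the broad ones had both, against 10.3% of all genes.

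These promoters, chosen after the values were seen, are those of 3 blood-restricted genes and *Tfrc*. Each is the plus strand, 5′ to 3′, of the bases before the start that lie outside annotated exons; capitals mark matches to the GATA motif, which read here in reverse complement, and to the KLF motif. *Alas2* lies at chrX:150547167-150547374 with the match 86 bases before the start (its 4 KLF matches lie nearer the start, in bases that are not shown), *Klf1* at chr8:84901732-84901927 with the match 80 bases before it, and *Rhag* at chr17:40810899-40811125 with the match 31 bases before it. *Tfrc*, at chr16:32608646-32608895, has no GATA match and 3 overlapping KLF matches on the other strand, which together form the capital stretch.
Alas2: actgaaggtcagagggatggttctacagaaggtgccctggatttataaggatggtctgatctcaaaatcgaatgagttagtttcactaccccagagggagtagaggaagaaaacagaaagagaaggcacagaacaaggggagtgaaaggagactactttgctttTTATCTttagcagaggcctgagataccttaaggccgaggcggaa
Klf1: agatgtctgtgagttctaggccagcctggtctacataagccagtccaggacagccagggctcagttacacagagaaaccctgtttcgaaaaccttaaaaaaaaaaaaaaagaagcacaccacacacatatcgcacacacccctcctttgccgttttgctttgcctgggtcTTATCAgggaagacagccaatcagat
Rhag: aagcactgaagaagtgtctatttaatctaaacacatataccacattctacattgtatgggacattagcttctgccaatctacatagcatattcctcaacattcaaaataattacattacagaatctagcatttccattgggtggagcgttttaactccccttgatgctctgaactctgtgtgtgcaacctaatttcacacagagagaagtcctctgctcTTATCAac
Tfrc: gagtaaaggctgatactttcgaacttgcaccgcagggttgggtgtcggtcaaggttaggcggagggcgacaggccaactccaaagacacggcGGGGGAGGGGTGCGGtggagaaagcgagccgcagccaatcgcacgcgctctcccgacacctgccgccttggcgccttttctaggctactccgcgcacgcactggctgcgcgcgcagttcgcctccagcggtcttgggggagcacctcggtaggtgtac

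Of the heme enzymes, *Alas2* is the red cell form of the first and rate-limiting one, 5-aminolevulinate synthase, and the only blood-restricted gene among the 7 examined. It had 17.5, 17.7 and 38.7 CPM in WT pools 3, 4 and 5, and 21.6, 30.1, 35.1 and 58.0 CPM in *Gata6STOP/+* pools 1, 3, 4 and 5. Both pools numbered 5 were the highest of their genotype, and WT pool 5 was above 3 of the 4 *Gata6STOP/+* pools. The log2 fold change was 0.56 (SE 0.32, limma adjusted p = 0.713). *Alas2*, the promoter of which is shown above, shares 311 exonic bases with *Apex2* on the opposite strand, whether counting used the strand is not stated, and *Apex2* was at 18.1 to 23.7 CPM in the 7 pools, a far narrower range.

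The later enzymes, which all cells need for their cytochromes, each varied less between pools than *Alas2*. They were not steadier than most genes. Except for *Ppox*, each had a larger standard deviation between pools of the same genotype, on the log2 scale, than the median of all genes. In pathway order, *Alad* had means of 41.3 ± 1.94 CPM in WT and 39.1 ± 4.82 CPM in *Gata6STOP/+*, *Uros* 17.7 ± 2.41 and 18.8 ± 1.63 CPM, and *Urod* 46.8 ± 3.3 and 45.9 ± 5.04 CPM (SD, n = 3 and 4). *Cpox*, coproporphyrinogen oxidase, had 55.3, 47.0 and 61.3 CPM in WT pools 3, 4 and 5, and 49.8, 63.0, 66.3 and 70.5 CPM in *Gata6STOP/+* pools 1, 3, 4 and 5. Pool 1 alone of *Gata6STOP/+* lay inside the WT range, and the log2 fold change was 0.19 (SE 0.12, limma adjusted p = 0.741). *Ppox* was the steadiest of the 35 genes, with a highest pool only 1.13 times its lowest, though 791 of its exonic bases are shared with *B4galt3* on the opposite strand. *Fech*, ferrochelatase, which inserts the iron, had 59.0, 63.6 and 66.9 CPM in WT pools 3, 4 and 5, and 53.7, 69.1, 58.5 and 78.8 CPM in *Gata6STOP/+* pools 1, 3, 4 and 5. The *Gata6STOP/+* pools lay on both sides of the WT pools, and the log2 fold change was 0.028 (SE 0.12, limma adjusted p = 0.969). Levels were also divided by the length of all annotated exons joined, which can exceed that of the expressed mRNA (13838 bases for *Fech*, 1871 for *Alad*). The order of genes on this scale thus depends on the annotation. WT means per kb were 22.1 CPM for *Alad*, 18.1 for *Urod*, 10.3 for *Alas2*, 9.85 for *Ppox*, 8.19 for *Cpox*, 4.95 for *Uros* and 4.56 for *Fech*.

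*Tfrc*, the transferrin receptor that takes iron into cells, was the gene with the smallest p among the 35. It had 150, 146 and 165 CPM in WT pools 3, 4 and 5 (154 ± 9.62, SD, n = 3), and 174, 169, 183 and 178 CPM in *Gata6STOP/+* pools 1, 3, 4 and 5 (176 ± 5.94, SD, n = 4). All 4 *Gata6STOP/+* pools were above all 3 WT pools, and pool 5 was not the highest of *Gata6STOP/+*. The log2 fold change was 0.20 (SE 0.060, limma adjusted p = 0.419), so that it did not pass, and it stayed between 0.16 and 0.25 when each pool was left out in turn. Per kb of annotated exon, a scale that depends on the annotation, *Tfrc* had the highest WT level among the 35 genes, 24.8 CPM.

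*Slc25a37*, mitoferrin 1, which carries iron across the inner mitochondrial membrane, varied like the blood-restricted genes. It was measured at 63.1, 61.9 and 107 CPM in WT pools 3, 4 and 5, and at 71.4, 91.4, 97.5 and 140 CPM in *Gata6STOP/+* pools 1, 3, 4 and 5. WT pool 5 exceeded 3 of the 4 *Gata6STOP/+* pools, and the log2 fold change was 0.38 (SE 0.22, limma adjusted p = 0.722). *Slc25a38*, the carrier that brings glycine into mitochondria, had means of 16.6 ± 0.581 CPM in WT and 15.7 ± 1.78 CPM in *Gata6STOP/+* (SD, n = 3 and 4). *Fam210b*, a mitochondrial membrane protein, had 13.8 ± 1.37 and 15.1 ± 2.43 CPM (SD, n = 3 and 4).

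**Figure D3:**
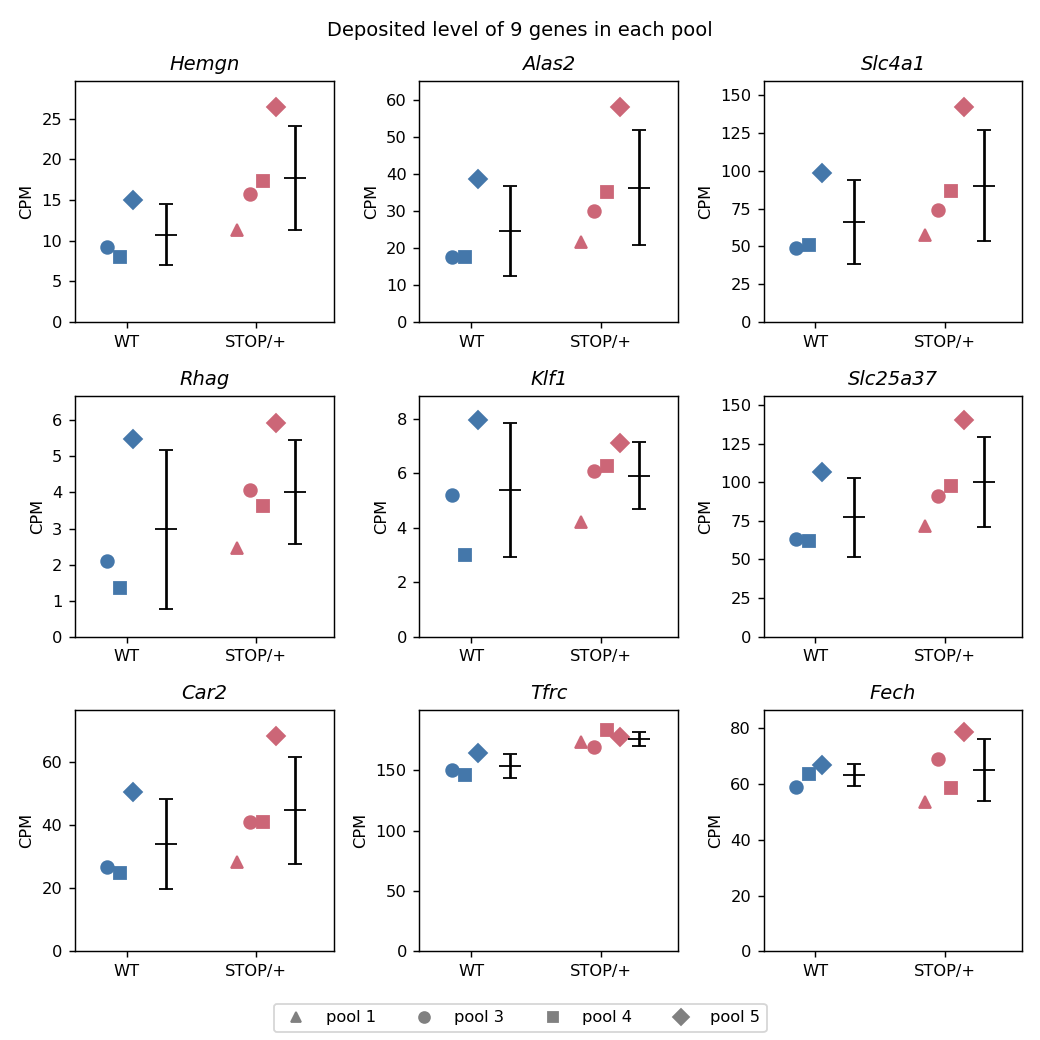
CPM of 9 genes in each pool; symbols give the pool number (triangle 1, circle 3, square 4, diamond 5), blue is WT and red is *Gata6STOP/+*, and the bar beside each group is the mean ± SD (n = 3 and 4). In *Hemgn*, *Alas2*, *Slc4a1*, *Rhag*, *Slc25a37* and *Car2* both diamonds are the highest of their genotype, *Klf1* is highest in WT pool 5, and in *Tfrc* all *Gata6STOP/+* points are above all WT points.

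The blood-restricted membrane genes are *Slc4a1*, the anion exchanger band 3, *Epb42*, protein 4.2 that binds it, *Ermap*, an erythroblast membrane protein, *Rhag* and *Rhd* of the Rh complex, and *Kel*, the Kell glycoprotein. *Slc4a1* had 49.1, 51.3 and 98.2 CPM in WT pools 3, 4 and 5, and 57.6, 73.9, 86.5 and 142 CPM in *Gata6STOP/+* pools 1, 3, 4 and 5. The 7 pools stood in the same order as for *Alas2*, and the log2 fold change was 0.44 (SE 0.29, limma adjusted p = 0.755). *Rhag* had 2.11, 1.35 and 5.49 CPM, and 2.46, 4.06, 3.62 and 5.93 CPM, in the same order. With a highest pool 4.41 times its lowest, *Rhag* had the widest range of the 35 genes, from 39 to 204 reads per pool, and its log2 fold change was 0.50 (SE 0.37, limma adjusted p = 0.780). *Ermap*, with 8.97, 7.87 and 22.7 CPM, and 11.7, 14.0, 14.7 and 26.7 CPM, had WT pool 5 far above the other WT pools (log2 fold change 0.42, SE 0.34, limma adjusted p = 0.792). *Epb42*, *Rhd* and *Kel* ranged from 3.86 to 9.97, from 4.52 to 8.34 and from 5.71 to 13.4 CPM in WT, and from 4.28 to 11.1, from 3.61 to 11.0 and from 6.63 to 18.7 CPM in *Gata6STOP/+*.

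The membrane skeleton, a mesh of spectrin tied to the membrane through ankyrin, protein 4.1 and adducin, is found in many cells, and its genes split. *Sptb*, beta spectrin, had 38.0, 35.8 and 48.3 CPM in WT pools 3, 4 and 5, and 36.6, 48.0, 48.3 and 68.6 CPM in *Gata6STOP/+* pools 1, 3, 4 and 5. *Gata6STOP/+* pool 5 stood above all others, and the log2 fold change was 0.28 (SE 0.17, limma adjusted p = 0.737). *Epb41*, protein 4.1, had 126, 126 and 135 CPM, and 126, 120, 118 and 149 CPM, in the same order. Its groups overlapped, and its log2 fold change was -0.013 (SE 0.081, limma adjusted p = 0.980). *Ank1* (ankyrin 1) and *Gypc* (glycophorin C) kept their highest pool within 1.56 and 1.19 times their lowest, while *Add2* (beta adducin) and *Tspan33* (a tetraspanin) reached 2.04 and 2.26 times.

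*Hemgn*, a nuclear protein of blood-forming cells, had the largest fold change of the 35 genes. It was at 9.25, 8.0 and 15.0 CPM in WT pools 3, 4 and 5 (10.8 ± 3.74, SD, n = 3), and at 11.3, 15.7, 17.3 and 26.5 CPM in *Gata6STOP/+* pools 1, 3, 4 and 5 (17.7 ± 6.36, SD, n = 4). *Gata6STOP/+* pool 1 was below WT pool 5 and the other 3 were above every WT pool. The log2 fold change was 0.68 (SE 0.26, limma adjusted p = 0.534), which did not pass, and was between 0.47 and 0.94 when each pool was left out in turn. *Trim10*, a tripartite motif protein of the ubiquitin ligase type, had 3.64, 3.69 and 12.3 CPM, and 5.12, 5.94, 7.24 and 13.6 CPM, with the 2 pools numbered 5 far above the rest (log2 fold change 0.39, SE 0.40, limma adjusted p = 0.841).

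Of the cytoplasmic genes, *Car2*, carbonic anhydrase 2, had 26.7, 24.7 and 50.5 CPM in WT pools 3, 4 and 5, and 28.3, 41.0, 40.9 and 68.3 CPM in *Gata6STOP/+* pools 1, 3, 4 and 5. Its pools stood in nearly the order of *Slc4a1*, and its log2 fold change was 0.39 (SE 0.28, limma adjusted p = 0.777). *Bpgm*, which makes the 2,3-bisphosphoglycerate that lowers the oxygen affinity of hemoglobin, had 28.2 ± 3.24 CPM in WT and 29.0 ± 4.72 CPM in *Gata6STOP/+* (SD, n = 3 and 4). *Tmcc2* had 40.9, 37.4 and 42.6 CPM in WT pools 3, 4 and 5, and 41.0, 37.0, 42.5 and 50.2 CPM in *Gata6STOP/+* pools 1, 3, 4 and 5, with overlapping groups and a log2 fold change of 0.074 (SE 0.097, limma adjusted p = 0.884). *Blvrb*, biliverdin reductase B, had the lowest log2 fold change of the 35 genes, -0.12, with 14.7 ± 3.60 CPM in WT and 13.3 ± 1.29 CPM in *Gata6STOP/+*.

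Most of the genes were highest, within each genotype, in the pool numbered 5. For 13 of 13 blood-restricted genes and 17 of 22 broad genes, WT pool 5 was the highest WT pool and *Gata6STOP/+* pool 5 the highest *Gata6STOP/+* pool, a pattern that 5.53% of all listed genes had. *Gata6STOP/+* pool 5 was the highest of all 7 pools for 28 of the 35 genes, against 10.3% of all genes, and *Gata6STOP/+* pool 1 was the lowest *Gata6STOP/+* pool for 13 of 13 blood-restricted genes, against 30.7% of all genes. WT pool 5 was above *Gata6STOP/+* pools 1, 3 and 4 in 11 of the 13, against 23.8% of all genes. WT pool 5 over the mean of WT pools 3 and 4 gave 3.36 for *Trim10*, 3.18 for *Rhag*, 2.20 for *Alas2* and 1.30 for *Gata1*, and *Gata6STOP/+* pool 5 over pool 1 gave 3.04 for *Rhd*, 2.82 for *Kel* and 1.69 for *Klf1*.

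Among single pools, leaving out WT pool 5 moved the number of separated genes most. Without it, every *Gata6STOP/+* pool was above every WT pool for 13 of the 35 genes (*Alas2*, *Slc4a1*, *Rhag*, *Kel*, *Ermap*, *Hemgn*, *Trim10*, *Nfe2*, *Slc25a37*, *Car2*, *Tal1*, *Uros* and *Tfrc*), where 8.23% of all genes were so separated. In that fit 11 of the 35 genes, all higher, had an unadjusted limma p under 0.05. Of all 14732 genes, 3.9% had such a p and were higher, and 1059 genes had it in either direction. The adjusted threshold was passed by 0 of the 35 genes and 0% of all genes. A setting without both pools numbered 5 was added after the values were seen. In it the groups were apart for the same number of genes, 13, against 10.5% of all genes. There, 9 of the 35, all higher, had an unadjusted limma p under 0.05, and 0 passed the adjusted threshold. Of all genes, 2.64% had such an unadjusted p and were higher, and 722 genes had it in either direction. *Cpox*, *Hemgn* and *Tfrc* were the 3 genes whose groups were apart without *Gata6STOP/+* pool 1 (6.63% of all genes), and without WT pool 4 *Blvrb* and *Epor* were lower in every *Gata6STOP/+* pool (10.1% of all genes).

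The spread between pools of the same genotype was far larger for blood-restricted genes than for most genes. As a standard deviation on the log2(CPM + 0.5) scale, its median was 0.556 for the 13 blood-restricted genes (0.322 to 0.745), 0.197 for the 22 broad genes and 0.126 for all genes, of which 90% lay under 0.305. All 13 blood-restricted genes and 5 broad genes (*Slc25a37*, *Car2*, *Sptb*, *Add2* and *Tspan33*) were above that 90th percentile. These include well-read genes, such as *Slc4a1* and *Alas2* with means over the 7 pools of 79.8 and 31.3 CPM. Of the genes called broad here, only those 5 thus had a spread past this cutoff, which measures its size and not the order of the pools. In pool order, 17 of the 22 broad genes had both pools numbered 5 highest in their genotype.

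**Figure D4:**
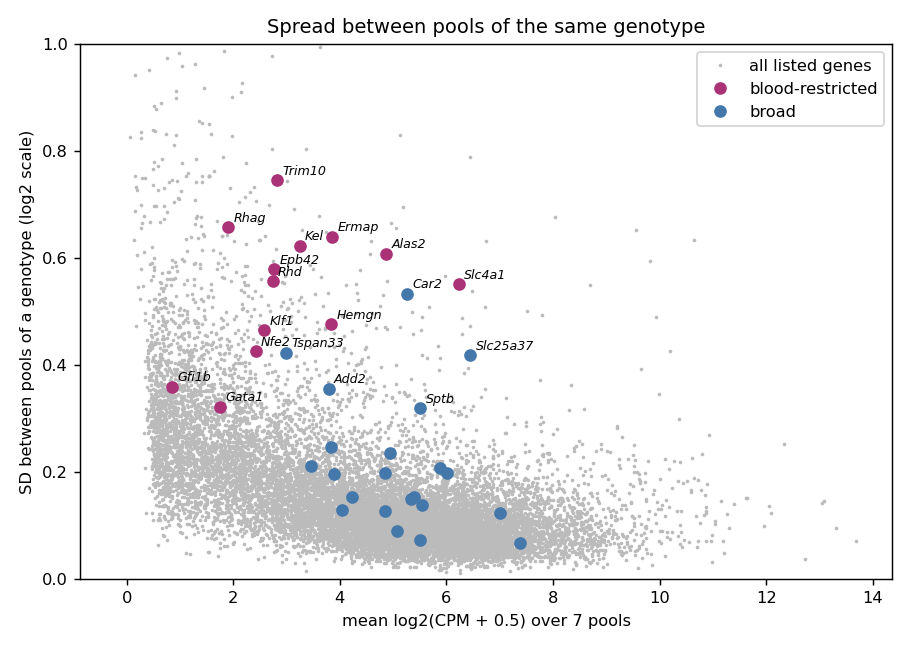
Standard deviation between pools of the same genotype against mean level, both on the log2(CPM + 0.5) scale, for all 14732 genes (grey), the 13 blood-restricted genes (purple) and the 22 broad genes (blue). All named points lie above 0.305, the 90th percentile of all genes, and most broad genes lie within the grey cloud; 46 grey genes with a value over 1 are outside the axis.

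The genes were also expressed relative to the globins, red cell transcripts themselves, whose sum depends both on the number of red cells and on the globin RNA in each. The 8 listed globin genes summed to 2929, 2474 and 5975 CPM in WT pools 3, 4 and 5, and to 2864, 4221, 4616 and 7605 CPM in *Gata6STOP/+* pools 1, 3, 4 and 5. Divided by this sum, the blood-restricted genes varied less: the ratio of the highest to the lowest pool narrowed for 13 of 13, from a median of 3.04 to 1.51, and for the same 5 of the 22 broad genes, while the other broad genes spread more (median of all 22, 1.44 before and 2.46 after). *Alas2* had 5.99, 7.15 and 6.48 CPM per 1000 globin CPM in WT pools 3, 4 and 5, and 7.56, 7.13, 7.61 and 7.62 in *Gata6STOP/+* pools 1, 3, 4 and 5. Only WT pool 4 reached the *Gata6STOP/+* range in that ratio. *Slc4a1* had 18.0 CPM per 1000 globin CPM in WT and 18.8 in *Gata6STOP/+*, *Hemgn* 2.97 and 3.73, and *Epb42* 1.74 and 1.41 (means of 3 and 4 pools). In that ratio *Hemgn* was higher in every *Gata6STOP/+* pool than in any WT pool, while *Epb42* was lower in every one. The share of all genes so separated in that ratio was not computed. In CPM the groups of both genes overlapped, and the log2 fold change of *Epb42* was 0.068, above 0. These ratios were computed after the values were seen, and they describe the levels, with no test.

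**Figure D5:**
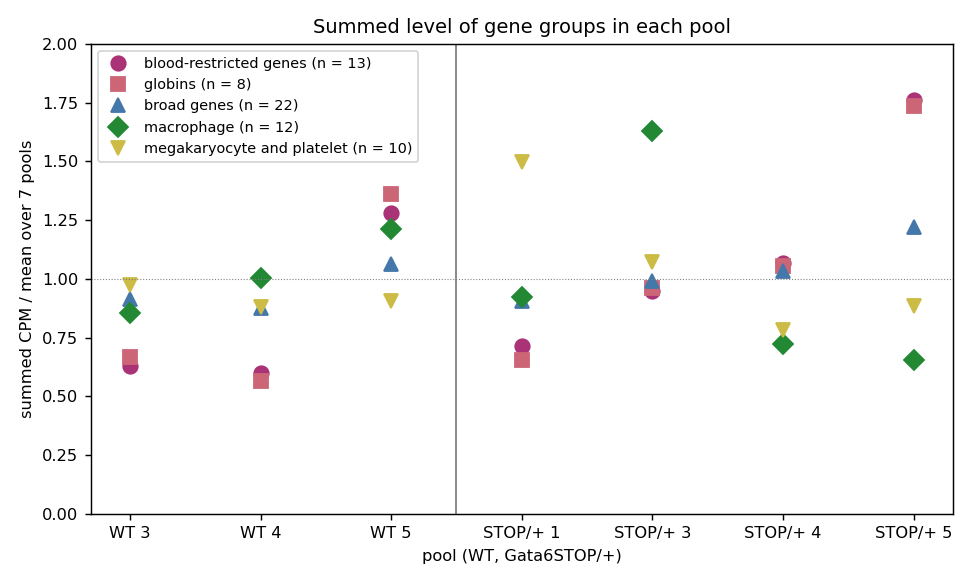
Summed CPM of 5 gene groups in each pool, divided by the group's mean over the 7 pools. The blood-restricted genes and the globins lie together and are highest in *Gata6STOP/+* pool 5 and second in WT pool 5, the macrophage markers are highest in *Gata6STOP/+* pool 3 and the megakaryocyte markers in *Gata6STOP/+* pool 1.

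Other blood cells did not share the order of the pools. The 12 macrophage markers summed to 76.6, 90.1 and 109 CPM in WT pools 3, 4 and 5, and to 82.7, 146, 64.8 and 58.7 CPM in *Gata6STOP/+* pools 1, 3, 4 and 5, and all 12 were highest in *Gata6STOP/+* pool 3. The 10 listed megakaryocyte and platelet markers summed to 31.2 to 34.6 CPM in WT and 27.7 to 53.1 CPM in *Gata6STOP/+*, and all 10 were highest in *Gata6STOP/+* pool 1. Endothelial markers summed to 839 to 1123 CPM in WT and 900 to 1109 CPM in *Gata6STOP/+*. The part of these cells in the values of *Tal1*, *Gata1*, *Nfe2* and *Gfi1b*, which megakaryocytes or endothelium also express, was not tested.

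Related genes outside the 35 were taken from 3 lists. Of 24 other heme and iron genes, 13 were higher and 11 lower in *Gata6STOP/+* by the estimate, with a median log2 fold change of 0.0088, and 0 passed. *Abcb10*, a mitochondrial transporter of red cell precursors, had the only unadjusted p under 0.05 among them (log2 fold change 0.20, limma adjusted p = 0.557). *Pcbp1*, an iron chaperone, was lower in every *Gata6STOP/+* pool, by a narrow gap (324 to 345.8 CPM against 346.0 to 371 CPM, limma adjusted p = 0.710). Of all genes, 4.16% were so separated. Of 14 other listed red cell membrane and cytoplasm genes, 9 were higher and 5 lower and 0 passed. *Aqp1*, a water channel, had a log2 fold change of 0.32 (limma adjusted p = 0.466). Of 18 other blood regulators, 9 were higher and 9 lower and 0 passed.

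The genes whose level across the 7 pools was most like the mean log2 level of the 13 blood-restricted genes were sought among the 11627 genes that averaged 5 CPM or more. Of the 22 broad genes, which are not part of that mean, 9 were among the 50 most alike. Outside the 35 genes, the 10 most alike were *Hbb-y* (Pearson r = 0.998), *Hba-x* (0.985), *Hba-a1* (0.985), *Hba-a2* (0.984), *Acp5* (0.983), *Slc30a10* (0.974), *Vhl* (0.965), *Hbb-bt* (0.956), *Hbb-bh1* (0.953) and *Sh3yl1* (0.948). *Acp5* had 9.11, 8.21 and 15.8 CPM in WT pools 3, 4 and 5, and 8.70, 13.0, 15.2 and 21.6 CPM in *Gata6STOP/+* pools 1, 3, 4 and 5. *Vhl* lay within a much smaller range, 39.2 to 44.8 CPM. Over the 5 pools that remained without *Gata6STOP/+* pool 5 and WT pool 4, the 2 ends of the scale, r of these 10 genes was between 0.902 and 0.999. The genes were picked by r over all 7 pools, these 5 included, so that a high value here follows in part from that choice. *Hba-a1* and *Hba-a2* are near-identical copies, between which reads may be split. The points are libraries, which share their depth and normalization, and r is given as a description.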

How the data were processed

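Polyadenylated RNA of pooled E11.5 OFTs was sequenced from 3 WT and 4 *Gata6STOP/+* pools. Per the methods and labels, the authors trimmed reads with Cutadapt, quantified genes with RSEM on GRCm38 with Ensembl genes, retained genes that reached 1 CPM in 3 or more samples and applied edgeR's TMM normalization. The deposited table holds 1 column per pool, in CPM relative to the library size after TMM adjustment. The methods and the series design give 3 pools per genotype, the labels 4 for *Gata6STOP/+*, and all 7 were used. Samples were grouped by the genotype and replicate number in the labels.

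Genes were tested with limma 3.58.1 (R 4.3.3; lmFit, eBayes with a mean-variance trend) on log2(CPM + 0.5), two-sided, without covariates, with Benjamini-Hochberg adjustment over 14732 genes and a threshold of 0.05. Fold changes on this scale understate changes of genes with few reads. Whole reads were recovered from the CPM values: 100% of the values in every pool came within 0.01 of a whole read, the smallest value standing for 1 read in 4 pools and for 2, 4 or 6 in the others. On these reads edgeR 4.0.16 (which called 0 genes by quasi-likelihood and 105 by the likelihood ratio test) and DESeq2 1.42.0 (88) served as alternatives, beside constants of 0.1 and 2, median-of-ratios scaling, a mean of at least 5 CPM, the replicate number as a block and leaving out each pool. The limma, edgeR and DESeq2 fits were run on simulated reads; the other alternatives were not. The genes and lists were chosen with earlier results of these data known. Full values are given for genes with an unadjusted p under 0.05 or groups that do not overlap (*Tfrc* and *Hemgn*), and examples of each role were taken by highest mean CPM, while which of these got values in every pool was decided after the values were seen; *Gata1*, *Alas2*, *Rhag*, *Ermap* and other genes outside this rule, and the counts of pool order and spread, were chosen after their values were seen. Gene lengths (union of exons) and overlaps come from GENCODE M21, in which 14723 of the identifiers were found. Where a gene had several RefSeq promoters, the first listed was used. One item among the related genes is not reported here.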

Additional observations from a re-analysis of the deposited data

Results flagged for a closer look

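*Uros*, uroporphyrinogen III synthase, had 1 *Gata6STOP/+* pool apart from the others of its genotype. Pool 1 had 16.4 CPM, while pools 3, 4 and 5 had 19.4, 19.6 and 19.9 CPM. The gap, divided by the range of the 4 pools, was 0.863, above Dixon's 95% critical value for 4 samples. Among 37 groups of 4 pools so examined, this was the only 1 past the value, and chance gives about 1 in 20. WT pools 3 and 4 had 16.3 and 16.4 CPM, so that pool 1 of *Gata6STOP/+* lay at their level. The cause was not tested.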

How the results depend on the processing

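Over all genes, 0 passed the threshold as planned, 1 with a constant of 0.1, 105 by edgeR's likelihood ratio test and 88 by DESeq2, and 0 (lowest) to 13 (highest, without WT pool 4) when each pool was left out; 2 passed without *Gata6STOP/+* pool 3 and 1 without pool 1. Of the 35 genes, 0 passed in any of these. The replicate number as a block changed this: 14 genes passed with limma, 13 with edgeR's quasi-likelihood test and 118 with its likelihood ratio test, among them 3, 3 and 6 of the 35, all higher. The 3 were *Alas2*, *Slc4a1* and *Hemgn* (limma adjusted p = 0.0388 for each, against 0.713, 0.755 and 0.534 without the block), and the likelihood ratio test added *Slc25a37*, *Sptb* and *Car2*. The numbers were not found to pair the pools: deviations from the group means over 11627 genes had correlations of -0.05, -0.27 and -0.02 between same-numbered pools 3, 4 and 5. WT pool 3 correlated best with *Gata6STOP/+* pool 4 (0.22), and no pool correlated best with the pool of its own number. The pools share only a number as far as is known, *Gata6STOP/+* pool 1 has no partner, and the blocked fit rests on 6 pools. The red cell genes themselves were highest in both pools numbered 5, and the cause of the difference between the fits was not tested. Genes of the 35 with groups apart numbered 1 higher as planned, 1 to 13 without single pools (13 without WT pool 5, 3 without *Gata6STOP/+* pool 1) and 13 without both pools numbered 5, and 0 to 2 lower (2 without WT pool 4). *Klf1* ranged from -0.14 (without WT pool 4) to 0.50 (without WT pool 5), reversing in the former. Differences near 0 also changed sign: *Fech* ranged from -0.069 to 0.11, *Epb41* from -0.087 to 0.024 and *Tmcc2* from -0.0057 to 0.14 without single pools, and *Fech* was -0.027 without both pools numbered 5. Of 287 refits of 16 named genes, 266 kept sign and side of the threshold, 12 passed it, all with the block, and 9 reversed. The fewest reads in a pool were 22 for *Gfi1b*, 39 for *Rhag* and 51 for *Gata1*.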

Other observations

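Outside the red cell genes and their lists of related genes, 3 marker genes had an unadjusted limma p under 0.05, and none passed after adjustment. Of all genes, 8.06% had such an unadjusted p. The marker lists held 10 megakaryocyte and platelet, 12 macrophage, 11 endothelial, 6 cardiomyocyte, 4 smooth muscle and 5 cushion mesenchyme genes. *Pdgfra* and *Postn*, of the cushion mesenchyme, had log2 fold changes of -0.50 (limma adjusted p = 0.354) and -0.47 (limma adjusted p = 0.433). *Pdgfra* was lower in every *Gata6STOP/+* pool, at 159 to 223 CPM against 227 to 311 CPM, where 4.16% of all genes were so separated. *Erg*, of the endothelium, had a log2 fold change of 0.24 (limma adjusted p = 0.522). Summed over the 5 cushion mesenchyme markers, WT pools had 2877 to 3469 CPM and *Gata6STOP/+* pools 2372 to 3171 CPM, and the 4 smooth muscle markers 2441 to 2889 and 2547 to 3397 CPM.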
